A study of Mus musculus with 12 samples.

Results

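The genes described here handle zinc, iron and magnesium: the metallothioneins Mt1 to Mt4, the zinc carriers of the Slc30 and Slc39 families, the iron carriers Slc11a1, Slc11a2 and Slc40a1, the Slc41 magnesium carriers, the transcription factor gene Mtf1, and the iron genes Tfrc, Trf, Fth1, Ftl1, Hamp and Cp. They were chosen by symbol, and all 41 were found among the 23284 genes of the deposited table. Of these, 36 passed the filter on low values, a level of at least 4 in at least 6 libraries. The other 5, Mt4, Slc30a3, Slc30a8, Slc39a12 and Hamp, are described with their families.

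Whole prostate tissue of 4-month-old mice was profiled by RNA sequencing of poly-A selected RNA. There were 6 libraries from wild-type animals and 6 from animals that carried a null allele in homozygous form (null animals), and both groups shared a hybrid 129/SvImJ and C57Bl/6J background. The labels name no Cre or other driver. They also leave unsaid whether each library is a separate mouse, so the spread behind the p-values is that of these libraries and may be technical.

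Values are on a log2 scale, where a difference of 1 corresponds to a 2-fold change, and 1101 olfactory receptor genes, taken as undetected, centred on 2.85 (median), with 3.50 as their 95th percentile. The depth of each library is unknown. Levels are not per transcript length, so they are compared between libraries of a gene and not between genes. Each genotype split into 2 sets of 3 libraries. The wild-type sets were libraries 1 to 3 and libraries 4 to 6. The null sets were libraries 1, 2 and 5 on one side and libraries 3, 4 and 6 on the other. Null library 5 looked like an average of its partners: it lay 0.0296 from the equal mix of libraries 1 and 2 (median absolute log2 difference), against 0.0646 from the nearer of them. Null library 6 likewise lay 0.0293 from the mix of libraries 3 and 4 and 0.0535 from the nearer of them. In the other libraries this distance was 0.0339 to 0.0855. The sets were chosen for such closeness, so these distances are a description, but the 6 null libraries may hold fewer than 6 independent samples. The median absolute difference between libraries over 3633 genes was 0.0388 to 0.0702 within the wild-type sets and 0.103 to 0.129 across them, 0.0535 to 0.112 within the null sets and 0.122 to 0.169 across them, and 0.199 to 0.258 between genotypes. A gene is called changed at an adjusted p under 0.05 in limma over all 12 libraries, and each call is set beside a repeat over the 4 set means. The first fit treats the libraries within a set as independent, and the repeat does not. The repeat rests on the gap between the set means of a genotype and leaves out the spread within sets. Where the libraries of a set lay far apart, its SE could therefore be the smaller one. Of 11 tested prostate markers, 8 fell and 2 rose, and over set means 5 fell and 1 rose. Tgm4, a prostate transglutaminase, averaged 19.57 in wild-type and 19.17 in null libraries, probasin (Pbsn) 17.99 and 15.83, and Spink3 17.73 and 13.73. The largest falls on the list, picked here after their values were seen, were those of Sbp, from 19.12 to 4.07, and Msmb, from 15.26 to 9.64. The call of Tgm4 was lost over set means (adjusted p = 0.285), after quantile normalization (0.413) and in limma without robust moderation (0.233). It held under 21 of 26 alternatives.

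Zinc enters the cytosol through the ZIP proteins of the Slc39 family and leaves it, outwards or into vesicles and organelles, through the ZnT proteins of the Slc30 family. Metallothioneins are small cysteine-rich proteins that bind zinc and copper, and the zinc-sensing factor MTF-1 induces their genes through metal response elements. The prostate is known for its high zinc content, which goes with the secretion of citrate. Iron is carried in plasma by transferrin (Trf), taken up through the transferrin receptor (Tfrc), moved across membranes by DMT1 (Slc11a2), stored in ferritin (Fth1 and Ftl1) and exported by ferroportin (Slc40a1), which the hormone hepcidin (Hamp) removes from the cell surface.

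The metallothionein genes of mouse lie side by side on chromosome 8, in the order Mt4, Mt3, Mt2 and Mt1. Mt1, Mt2 and Mt3 had the largest falls of the members. The upstream sequences of Mt1 and Mt2 are shown as RefSeq gives them for GRCm38.p6, and that of Mt3 is not printed. The printed sequences run from 250 bases before the annotated start to the last base before it. The coordinates are chr8:94178839-94179088 for Mt1 and chr8:94172368-94172617 for Mt2, both on the plus strand. Capitals mark matches to the core letters of the metal response element, TGCACNC or TGCGCNC, read on either strand.
Mt1: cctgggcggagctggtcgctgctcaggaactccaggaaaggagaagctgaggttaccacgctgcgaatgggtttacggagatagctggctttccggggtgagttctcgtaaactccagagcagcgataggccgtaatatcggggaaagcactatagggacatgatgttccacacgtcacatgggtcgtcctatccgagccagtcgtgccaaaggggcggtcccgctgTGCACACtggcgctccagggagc
Mt2: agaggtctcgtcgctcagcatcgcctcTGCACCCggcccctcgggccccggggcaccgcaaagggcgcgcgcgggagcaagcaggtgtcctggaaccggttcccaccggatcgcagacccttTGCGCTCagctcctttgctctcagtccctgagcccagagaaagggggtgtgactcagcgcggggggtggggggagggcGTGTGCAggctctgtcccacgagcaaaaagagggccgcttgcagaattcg

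Mt1 held 1 match and Mt2 held 3 in these windows, Mt4 held 1 and Mt3 none. Of 32851 RefSeq windows of the same length, 21.4% held at least 1 match and 1.26% at least 3, where overlapping matches were counted separately. Promoter entries were found for 34 of the 41 genes, in 42 windows, of which 18 (42.9%) held at least 1 match. The 7 genes with no entry were Slc30a8, Slc39a4, Slc39a6, Slc39a14, Slc40a1, Slc11a2 and Trf. The longest GENCODE M21 transcripts of Mt1 and Mt2 start close to these windows, and their first 150 bases, annotated as 5′ UTR where the matches lie, held 4 matches in Mt1 and 3 in Mt2. Among 45044 transcripts, 0.417% held at least 3 matches in their first 150 bases. Other transcripts start further downstream, at 94179211 and 94179241 for Mt1 and at 94172860 for Mt2, and hold none in that window. The stretches given below lie upstream of these starts, so whether they are promoter or 5′ UTR depends on the transcript. The matching stretches lie, on GRCm38, at chr8:94179089-94179117 and chr8:94179169-94179197 for Mt1 and at chr8:94172674-94172703 and chr8:94172725-94172739 for Mt2. They are given with the same use of capitals.
Mt1, first stretch: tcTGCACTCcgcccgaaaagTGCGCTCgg
Mt1, second stretch: tgctGGGTGCAaacccttTGCGCCCggac
Mt2, first stretch: gcGTGTGCAggcggcgggggcGCGTGCAtg
Mt2, second stretch: ctttTGCGCTCgacc

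A match is a description of letters and shows no binding. The longest Mt3 transcript also held 3 matches in its first 150 bases, and Mt3 transcripts that start further downstream, at 94152746, held none.

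Over all members, 23 of the 36 tested genes (63.9%) were called over 12 libraries, beside 53.1% of all 15096 tested genes. Of these, 13 rose (28.0% of all tested genes rose) and 10 fell (25.1% of all fell). Over set means 9 members were called, 4 higher and 5 lower, beside 14.5% of all genes, 7.58% of them higher and 6.96% lower. The genotypes did not overlap in 16 members, against 32.6% of all genes. Among called members, 9 differed by at least 1.5-fold (17.9% of all genes) and 5 by at least 2-fold (7.01%). The median difference of the members was 0.075 and that of all tested genes 0.012, and the median absolute differences were 0.35 and 0.25. The count of called members was therefore somewhat above the background share, and the members were not tested as a group.

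**Figure D1:**
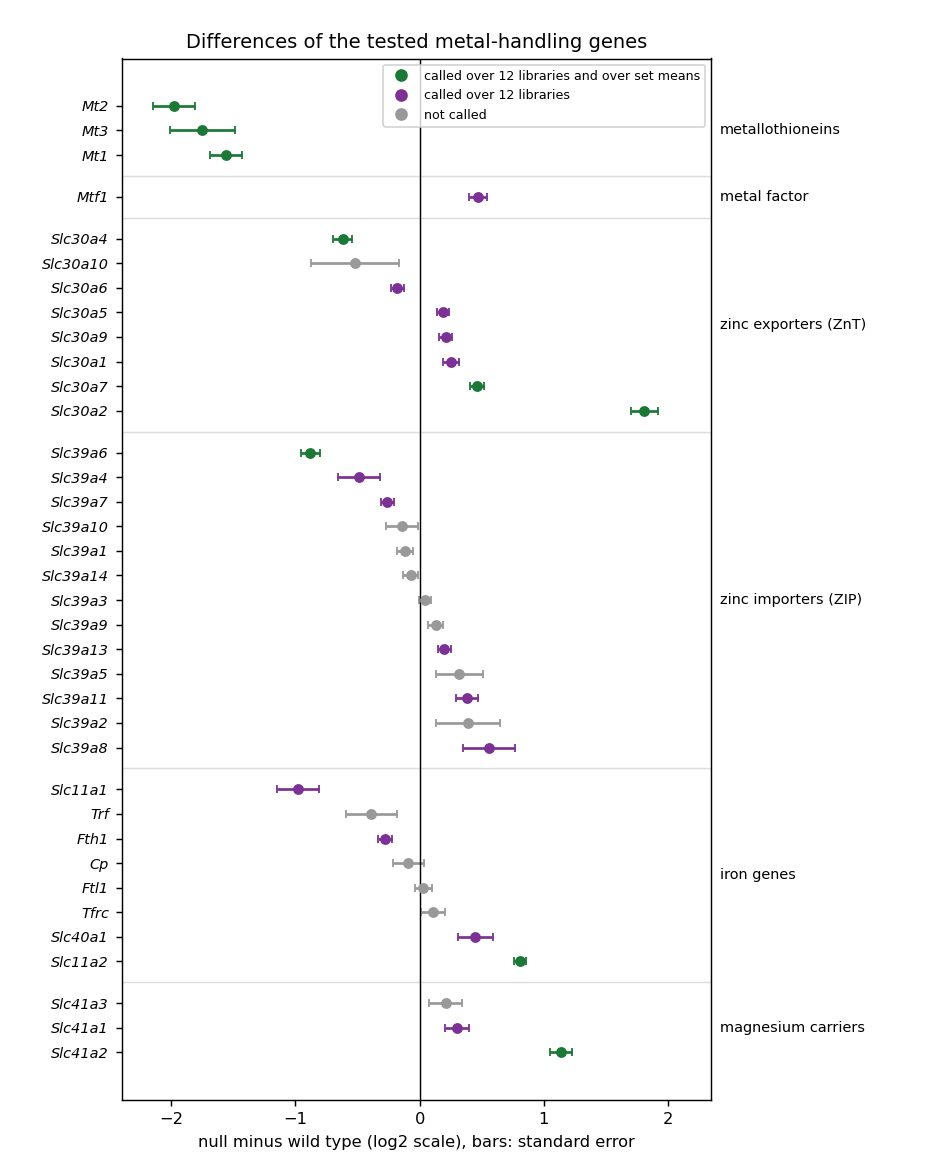
Difference between null and wild-type libraries for the 36 tested genes, grouped by role, in log2 units with standard errors as bars, 6 libraries a genotype. The 3 metallothioneins lie between -1.98 and -1.56, and Slc30a2 lies farthest to the right at 1.81.

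The 3 expressed metallothionein genes all fell in null prostate. Mt1 stood at 14.55 to 14.80 in wild-type libraries (median 14.72) and at 12.60 to 13.50 in null libraries (median 13.17). All null libraries were below all wild-type libraries. The difference was -1.56 (SE 0.128), a 2.96-fold lower level, with adjusted p = 2.65e-07 over 12 libraries and 0.00313 over set means.

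Mt2, the partner isoform, stood at 14.11 to 14.38 in wild-type libraries (median 14.23) and at 11.48 to 12.76 in null libraries (median 12.33). Again the genotypes did not overlap. The difference was -1.98 (SE 0.171), a 3.94-fold lower level, with adjusted p = 7.77e-07 and 0.00232 over set means.

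Mt3, known as a growth inhibitory metallothionein of the brain, stood at 10.36 to 10.57 in wild-type libraries (median 10.47). In null libraries it stood at 7.87 to 9.47 (median 8.84), a wide range with no overlap. It fell by 1.75 (SE 0.262), with adjusted p = 1.45e-04 and 8.79e-04 over set means. The SE over set means was only 0.0893, because each null set held both high and low values that its mean evened out. Mt4, known from stratified squamous epithelium, stayed between 2.39 and 3.55 in all 12 libraries, around the undetected level.

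Null libraries varied more than wild-type libraries in these genes. The SD was 0.338 for Mt1, 0.450 for Mt2 and 0.684 for Mt3 in null libraries, against 0.0946, 0.124 and 0.0777 in wild-type libraries. Null libraries 1 and 3 held the lowest values of Mt1 and Mt2 and the highest of Mt3. Null libraries 2 and 4 held the highest values of Mt1 and Mt2 and the lowest of Mt3. Null libraries 5 and 6, the libraries close to a mix of their partners, lay between them in all of these genes. Larger SDs in null than in wild-type libraries were seen for 26 of 36 members and for 60.4% of all tested genes.

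Genes next to the cluster moved in both directions. Of the 3 protein-coding genes next to it on each side, Ogfod1 rose by 0.47 (adjusted p = 1.89e-06; 0.0286 over set means) and Nup93 fell by 0.32 (adjusted p = 2.10e-04; 0.0974 over set means). Nudt21, Bbs2, Slc12a3 and Herpud1 were not called. Bbs2, next to Mt4, differed by -0.11 (adjusted p = 0.0563), and it was called at -0.14 after quantile normalization and after upper quartile scaling. Herpud1 differed by 0.35 over all libraries, but by -0.46 (adjusted p = 2.51e-04) without null libraries 1, 2 and 5 and by 1.16 (adjusted p = 0.00747) without null libraries 3, 4 and 6.

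Mtf1, the gene of the zinc-sensing factor, was higher in null libraries. It stood at 8.86 to 9.19 in wild-type libraries (median 9.07) and at 9.38 to 9.69 in null libraries (median 9.52), without overlap. The difference was 0.47 (SE 0.0695), with adjusted p = 5.31e-05 over 12 libraries and 0.0502 over set means, just outside the threshold.

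Several other lists differed between the genotypes alongside the metallothioneins, and their part in the fall was not tested. All 9 tested seminal vesicle markers rose, 6 of them also over set means. The log2 of the summed level of all 10 on the list went from 8.12 to 11.81 in wild-type to 16.85 to 20.39 in null libraries. Svs3a, Svs3b, Svs6 and Sva were below 4 in every wild-type library. They passed the filter only through null libraries, so the direction of their difference was fixed by it. No marker on this list was undetected in every library. Wild-type libraries 4 to 6, with the lower seminal vesicle sums of 8.12 to 8.16, had Mt1 at 14.77 to 14.80, and libraries 1 to 3, with sums of 11.74 to 11.81, had it at 14.55 to 14.66. Within the null sets the order was the other way. Null libraries 1, 5 and 2 had sums of 18.36, 19.75 and 20.39 and Mt1 at 12.60, 13.18 and 13.50, and null libraries 3, 6 and 4 had sums of 16.85, 17.60 and 18.05 and Mt1 at 12.91, 13.16 and 13.45. Null libraries 5 and 6 lay close to a mix of their partners, so their middle place is not a separate observation. Among 8 glucocorticoid-induced genes, a class to which Mt1 and Mt2 also belong, 5 rose and 1 fell, and over set means 2 rose and 1 fell. The summed level was 14.06 to 14.14 in wild-type and 15.12 to 15.28 in null libraries. The sum is weighted to its highest values, here Sgk1, which averaged 12.95 in wild-type and 14.73 in null libraries. Fkbp5, the gene that fell, averaged 12.09 and 11.37. Of 12 immediate early and heat shock genes, 1 rose and 2 fell, and none was called over set means. The summed level was high in null libraries 1, 2 and 5 (13.83 to 14.24) and low in the other null set (12.36 to 12.43). Hspa1b, on this list, stood at 12.60 to 13.36 in the former and at 8.85 to 9.71 in the latter. Mt1 averaged 13.10 in the first of these null sets and 13.18 in the second. Of the other lists, 2 of 3 tested urothelium markers and 4 of 8 adipocyte markers rose, 1 of 6 skeletal muscle markers rose and 3 fell, and limma called neither of the 2 liver markers. Over set means 2 urothelium markers rose. The 2 adipocyte markers that rose there were Retn and Lep, and Lep was not called over 12 libraries (adjusted p = 0.151). The 2 skeletal muscle markers that fell over set means were Myh1 and Myh2. Both were below 4 in every null library and passed the filter only through wild-type libraries, so the filter fixed the direction of their difference. In whole tissue, fewer cells of a type and less RNA per cell cannot be told apart.

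**Figure D2:**
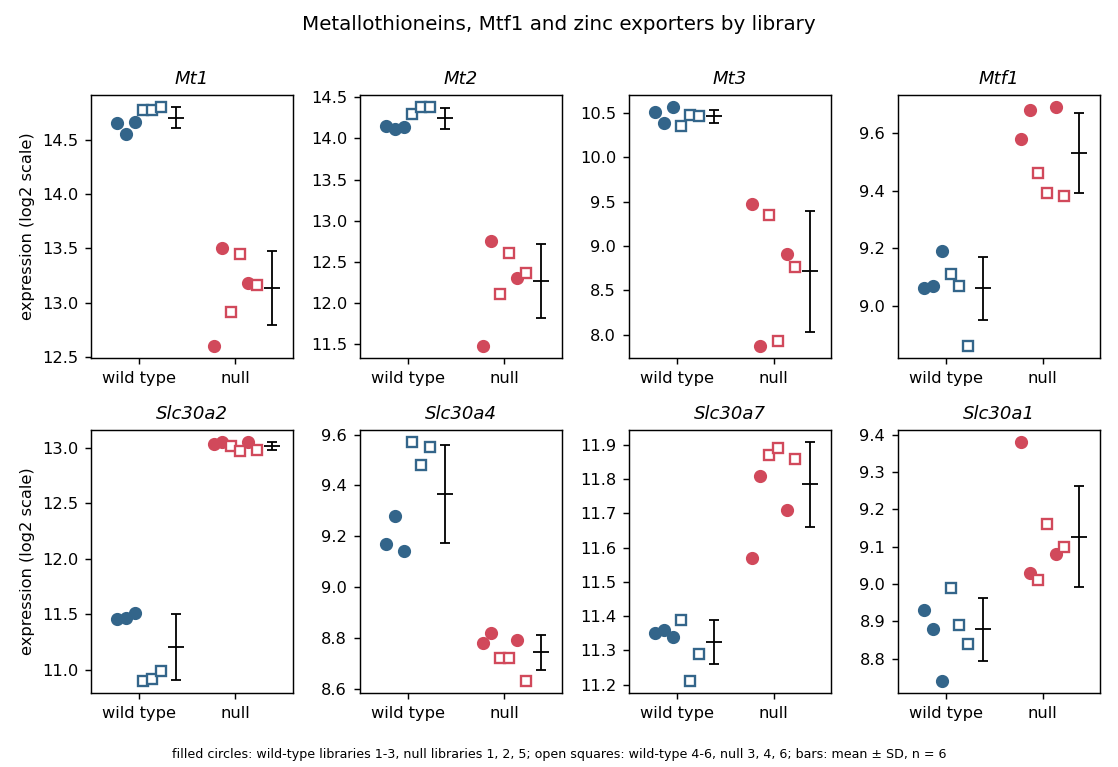
Values of each library on the log2 scale for the metallothioneins, Mtf1 and 4 zinc exporters, with filled and open symbols for the sets of each genotype and bars for the mean and SD of 6 libraries. No gene shown has overlapping genotypes, and Slc30a2 varies least among null libraries, from 12.97 to 13.05.

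Zinc exporters moved in both directions, led by Slc30a2. Of the 8 exporters tested, 5 rose and 2 fell, so that 87.5% were called beside 53.1% of all tested genes, and over set means 2 rose and 1 fell. The median difference was 0.20. Slc30a2 encodes ZnT2, a vesicular zinc carrier of secretory epithelia. Its wild-type libraries ranged from 10.90 to 11.51 (median 11.22) and its null libraries from 12.97 to 13.05 (median 13.02). The null libraries were nearly equal, while wild-type libraries 1 to 3 (11.46 to 11.51) lay above libraries 4 to 6 (10.90 to 10.99). The rise was 1.81 (SE 0.110), or 3.50-fold, with adjusted p = 1.40e-08 and 0.00636 over set means.

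Slc30a4, which encodes ZnT4, also a carrier of secretory vesicles, moved the other way. It stood at 9.14 to 9.57 in wild-type libraries (median 9.38) and at 8.63 to 8.82 in null libraries (median 8.75). The genotypes did not overlap, and the fall of 0.62 (SE 0.0780) had adjusted p = 1.19e-05 and 0.0384 over set means.

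Carriers of the Golgi and the early secretory pathway differed in both directions. Slc30a7, a Golgi carrier, rose by 0.46 (SE 0.0572), from 11.21 to 11.39 in wild-type to 11.57 to 11.89 in null libraries, with adjusted p = 1.09e-05 and 0.0445 over set means. Slc30a5 rose by 0.19 and its complex partner Slc30a6 fell by 0.18. Over set means their adjusted p was 0.214 and 0.270. Slc30a6 was also not called without wild-type libraries 4 to 6 (adjusted p = 0.0709) or without null libraries 1, 2 and 5 (0.0549), and the rise of Slc30a5 was not called after quantile normalization (adjusted p = 0.132). Slc30a9, known as a mitochondrial zinc exporter, rose by 0.21, with adjusted p = 0.187 over set means and 0.0642 after quantile normalization.

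Slc30a1, the zinc exporter of the plasma membrane and a known target of MTF-1, stood at 8.74 to 8.99 in wild-type libraries (median 8.89) and at 9.01 to 9.38 in null libraries (median 9.09). The gap between the genotypes was narrow, with the highest wild-type library at 8.99 and the lowest null library at 9.01. The rise was 0.25 (SE 0.0653), with adjusted p = 0.00504 and 0.132 over set means. It thus went in the direction opposite to Mt1 and Mt2.

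Slc30a10, which is best known as a manganese exporter, separated the null libraries rather than the genotypes. Null libraries 1, 2 and 5 stood at 6.79, 6.98 and 6.90, whereas libraries 3, 4 and 6 of that genotype stood at 8.45, 8.64 and 8.47. Wild-type libraries had a median of 8.30 and none stood below 7.75, so that 1 null set lay below all of them and the other reached their upper range. The difference of -0.52 was not called (adjusted p = 0.247). Without null libraries 3, 4 and 6 it was -1.33 (adjusted p = 2.75e-05), and without null libraries 1, 2 and 5 it was 0.30 (adjusted p = 0.124). Slc30a3 (2.34 to 3.67) and Slc30a8 (2.24 to 3.61) stayed around the undetected level in all libraries.

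Among zinc importers, Slc39a6 had the largest difference. Of 13 tested members, 3 rose, 3 fell and 7 were not called, a share of 46.2% called, below that of all genes. Over set means 1 was called, and the median difference was 0.040. The gene called there was Slc39a6, which encodes ZIP6, also known as LIV-1. It stood at 8.93 to 9.24 in wild-type libraries (median 9.12) and at 7.98 to 8.47 in null libraries (median 8.20), without overlap. It fell by 0.88 (SE 0.0771), a 1.85-fold lower level, with adjusted p = 3.22e-07 and 0.0119 over set means.

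Slc39a7, the zinc carrier of the endoplasmic reticulum, fell by 0.26, from 12.97 to 13.09 in wild-type to 12.65 to 12.95 in null libraries (adjusted p = 0.00112; 0.193 over set means). Slc39a4, the importer known from intestinal zinc uptake, fell by 0.49 (adjusted p = 0.0248; 0.149 over set means). It stood at 8.54 to 8.93 in wild-type libraries, and its genotypes overlapped, since null library 4 stood at 8.65, above wild-type libraries 1 to 3. Null library 5 stood at 8.08 and null library 1 was the lowest. Its call was lost without wild-type library 4 (adjusted p = 0.0529), wild-type library 5 (0.0528) or null library 5 (0.0532).

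Slc39a8, which carries zinc and manganese, was the importer with the largest difference upwards, 0.56 (SE 0.207), at adjusted p = 0.0385. Wild-type libraries were tight at 11.61 to 11.77 (median 11.66), and null libraries ranged from 11.29 to 12.75 (median 12.41). Null library 2 stood below all wild-type libraries, and the other null libraries above them. The call was lost over set means (adjusted p = 0.216), by the exact rank-sum test (0.112), and when any of 10 of the 12 libraries was left out, with differences of 0.45 to 0.58. Without null libraries 3, 4 and 6 the difference was 0.16 (adjusted p = 0.489), and without null libraries 1, 2 and 5 it was 0.95 (adjusted p = 4.67e-08).

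Slc39a11 rose by 0.38 and Slc39a13, a carrier linked to connective tissue, by 0.20, with adjusted p = 0.135 and 0.200 over set means, and both calls were lost without wild-type libraries 1 to 3 (adjusted p = 0.0553 and 0.0549). Slc39a1, an importer long studied in prostate epithelium, stood at 10.28 to 10.40 in wild-type libraries. In null libraries it split by set, at 10.06 to 10.11 in libraries 1, 2 and 5 and 10.35 to 10.37 in libraries 3, 4 and 6. Its difference of -0.12 was not called (adjusted p = 0.132), but it was called after quantile normalization (-0.19, adjusted p = 0.00464) and upper quartile scaling (-0.15, adjusted p = 0.0385). Slc39a2, Slc39a3, Slc39a5, Slc39a9, Slc39a10 and Slc39a14 were not called, with differences between -0.14 and 0.39. Some of these were called when a set was left out, Slc39a9 at 0.27 (adjusted p = 1.74e-04) without null libraries 1, 2 and 5, Slc39a2 at 0.89 (0.00578) without null libraries 3, 4 and 6, and Slc39a14 at -0.17 (0.0190) without wild-type libraries 1 to 3. Slc39a9 was also called without null library 2 (0.17, adjusted p = 0.0254) or null library 5 (0.16, adjusted p = 0.0463). Slc39a2 and Slc39a5 were expressed at low levels, up to 5.80 and 4.40. Slc39a12, a brain importer, stayed between 2.56 and 3.60.

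**Figure D3:**
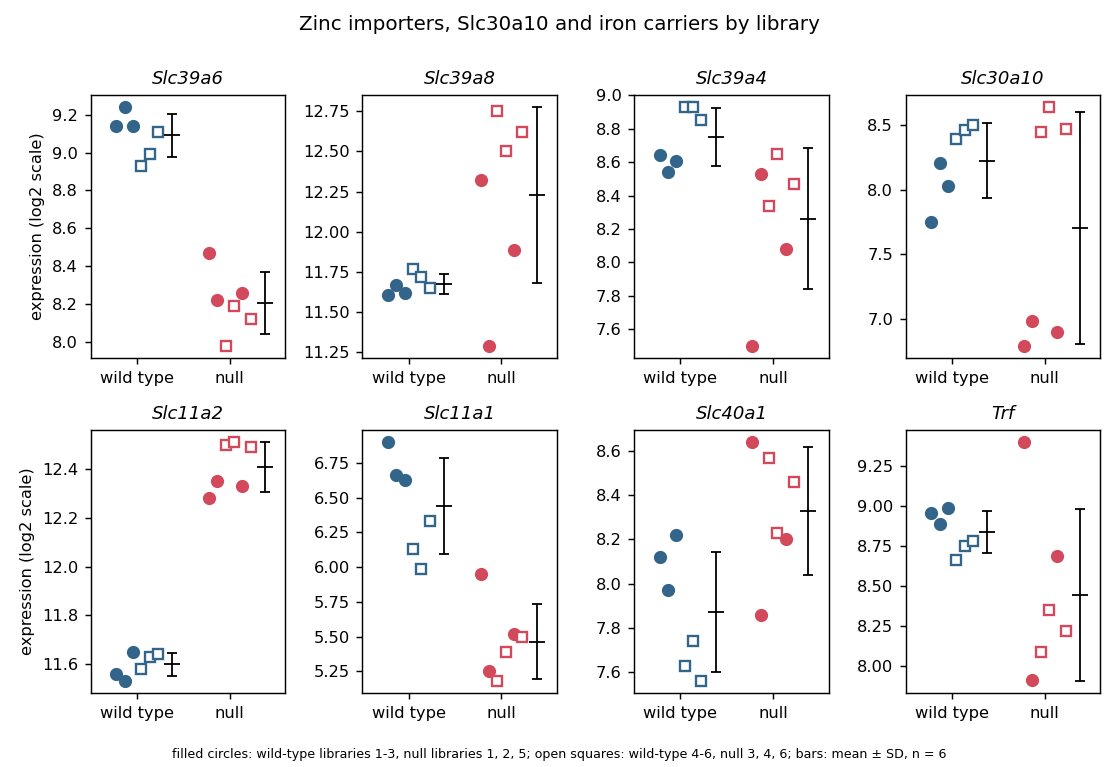
Values of each library on the log2 scale for 3 zinc importers, Slc30a10 and 4 genes of iron transport, with symbols and bars as in the plot of metallothioneins. Slc39a6, Slc11a2 and Slc11a1 have no overlap between genotypes, and Slc30a10 splits the null libraries into 6.79 to 6.98 and 8.45 to 8.64.

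Among the iron genes, 2 of 8 tested members rose, 2 fell and 4 were not called, a share of 50.0%, near that of all genes. Over set means 1 was called, and the median difference was -0.031. That gene was Slc11a2, the divalent metal carrier DMT1. It stood at 11.53 to 11.65 in wild-type libraries (median 11.60) and at 12.28 to 12.51 in null libraries (median 12.42), without overlap. It rose by 0.81 (SE 0.0502), or 1.76-fold, with adjusted p = 9.93e-09 and 0.0111 over set means.

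Slc11a1, the related NRAMP1 of phagocyte vesicles, fell by 0.98 (SE 0.169), with adjusted p = 2.17e-04 and 0.0579 over set means. It stood at 5.99 to 6.90 in wild-type libraries (median 6.48), highest in libraries 1 to 3, and at 5.18 to 5.95 in null libraries (median 5.44). Macrophage markers moved with it: 11 of 12 fell and none rose over 12 libraries, but over set means only 1 was called, as lower. The log2 of their summed level was 12.85 to 12.87 in wild-type libraries 1 to 3, 12.07 to 12.14 in libraries 4 to 6 and 11.56 to 11.66 in null libraries. Each of these markers was above the undetected level in some library. Their part in the fall of Slc11a1 was not tested.

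Slc40a1, the iron exporter ferroportin, which macrophages also express, went the other way. It stood at 7.56 to 8.22 in wild-type libraries (median 7.86) and at 7.86 to 8.64 in null libraries (median 8.34), with overlap. Wild-type libraries 1 to 3 lay above libraries 4 to 6. The rise of 0.45 (SE 0.144) had adjusted p = 0.0161, but 0.152 over set means and 0.0515 by the exact rank-sum test, and without wild-type libraries 4 to 6 the difference was 0.22 (adjusted p = 0.258).

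The genes of ferritin, transferrin and its receptor differed little. Fth1, the ferritin heavy chain, stood at 14.26 to 14.49 in wild-type libraries (median 14.35) and at 14.03 to 14.14 in null libraries (median 14.09). It fell by 0.28 (SE 0.0553; adjusted p = 7.23e-04), without overlap, and over set means the adjusted p was 0.222. Ftl1, the light chain, stood at 12.35 to 12.70 in wild-type libraries (median 12.52) and at 12.48 to 12.63 in null libraries (median 12.53). Its difference of 0.03 (SE 0.0683) was not called (adjusted p = 0.755; 0.908 over set means), and its sign depended on scaling, at -0.08 after quantile normalization. Without wild-type libraries 1 to 3 it was 0.18 (adjusted p = 0.0144). Both ferritin genes have processed pseudogenes of near-identical sequence, and the sources used here do not say how such reads were counted.

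Tfrc stood at 9.05 to 9.29 in wild-type libraries (median 9.14) and at 8.93 to 9.50 in null libraries (median 9.31), a difference of 0.11 (SE 0.0966) that was not called (adjusted p = 0.356; 0.673 over set means). Null libraries 3, 4 and 6 stood at 9.44 to 9.50, above all wild-type libraries, and null libraries 1, 2 and 5 at 8.93 to 9.19. Without the latter the difference was 0.32 (adjusted p = 4.42e-04), and without the former it was -0.10 (adjusted p = 0.245). Trf stood at 8.66 to 8.99 in wild-type libraries (median 8.83) and at 7.91 to 9.40 in null libraries (median 8.29). Its difference of -0.39 (SE 0.204) was not called (adjusted p = 0.122; 0.186 over set means). Null library 1 stood above all wild-type libraries, and without it the difference was -0.59 (adjusted p = 8.89e-04).

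Cp, the copper-bearing ferroxidase ceruloplasmin, stood at 9.66 to 10.29 in wild-type libraries (median 10.03) and at 9.67 to 10.18 in null libraries (median 9.94), a difference of -0.09 (SE 0.126; adjusted p = 0.577; 0.792 over set means). The wild-type sets were farther apart than the genotypes, at 9.66 to 9.81 and 10.25 to 10.29, and without libraries 1 to 3 the difference was -0.35 (adjusted p = 0.0121). Hamp stayed between 2.48 and 3.80 in all libraries, around the undetected level.

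Translation or stability of several of these mRNAs is known to be set by iron-responsive elements, hairpins with a CAGTGN loop to which the iron regulatory proteins bind. They are shown because they group the iron genes by a feature of sequence. The genes were chosen by symbol, but that choice took in mRNAs already known for such elements. The count of members with an element is therefore a description. Spliced GENCODE M21 transcripts were searched for a C, 5 bases, CAGTGN with A, C or T last, and 5 bases that pair with the first 5, counting G with T as a pair. Such an element in a UTR was found in 119 of 21875 genes (0.544%) and in 4 of the 41 members. An element with an unpaired base in this stem would be missed. A member without a match, such as Slc11a2, may therefore still hold an element. Fth1, Ftl1 and Slc40a1 held 1 each in the 5′ UTR, and Tfrc held 4 in the 3′ UTR, of which the first is printed. On GRCm38 they lie at chr19:9982732-9982760 (plus strand), chr7:45459779-45459807 (minus strand), chr1:45925465-45925493 (minus strand) and chr16:32631219-32631247 (plus strand). Capitals mark the bulged C and the loop.
Fth1: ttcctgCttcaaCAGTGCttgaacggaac
Ftl1: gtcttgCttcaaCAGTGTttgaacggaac
Slc40a1: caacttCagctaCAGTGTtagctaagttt
Tfrc: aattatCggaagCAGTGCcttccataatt

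The RNA levels of these 4 genes did not move together, with differences of -0.28 for Fth1, 0.03 for Ftl1, 0.45 for Slc40a1 and 0.11 for Tfrc. No values here bear on their translation.

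The Slc41 carriers transport magnesium. Slc41a2 had the second largest rise of the members, after Slc30a2. It stood at 9.63 to 9.96 in wild-type libraries (median 9.77) and at 10.62 to 11.22 in null libraries (median 10.92), without overlap. It rose by 1.14 (SE 0.0898), or 2.20-fold, with adjusted p = 1.42e-07 and 0.00585 over set means. Slc41a1 rose by 0.30 over 12 libraries (adjusted p = 0.0206; 0.244 over set means), and without null libraries 3, 4 and 6 its difference was 0.08 (adjusted p = 0.339). Its call was also lost by the exact rank-sum test (adjusted p = 0.151). Slc41a3 differed by 0.21 and was not called (adjusted p = 0.199).

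Other genes of the same pathways were counted from lists that overlap none of the members. Among 17 tested genes of iron regulation and ferrireduction there were 6 rises and 3 falls, a share of 52.9% called, near the 53.1% of all genes, and over set means 2 rose and 1 fell (median difference -0.051). Steap1, of a family of metalloreductases, fell by 1.40, from 7.54 to 7.80 in wild-type to 5.76 to 6.92 in null libraries (adjusted p = 2.60e-06; 0.00582 over set means). Hfe, the haemochromatosis gene, rose by 0.88, with overlap (adjusted p = 0.00436; 0.122 over set means), and its call was lost without wild-type libraries 1 to 3 (0.0776) or null libraries 3, 4 and 6 (0.0549).

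The 2 largest remaining changes on this list depended on the sets. Ltf, which encodes the iron-binding protein lactoferrin, fell by 2.03 (adjusted p = 0.0246; 0.292 over set means). Wild-type libraries 1 to 3 stood at 5.18 to 5.47 and libraries 4 to 6 at 7.80 to 7.89, against levels of 4.89 to 6.01 in null libraries 1, 2 and 5 and 3.56 to 3.64 in the other null set. Without any 1 of wild-type libraries 4, 5 and 6 or of null libraries 3, 4 and 6 its call was lost (adjusted p = 0.0531 to 0.0541). Ncoa4, the receptor that brings ferritin to the lysosome, rose by 1.20 (adjusted p = 0.0300; 0.319 over set means). Its wild-type libraries 1 to 3 stood at 7.13 to 7.30 and libraries 4 to 6 at 9.06 to 9.26, next to null libraries at 9.20 to 9.52. Leaving out any 1 of wild-type libraries 1, 2 and 3 or of null libraries 2, 3 and 5 ended its call (adjusted p = 0.0508 to 0.0635).

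Haem genes included Hmox1, Blvrb and Blvra among those that fell. Among 23 tested genes of haem and iron-sulphur cluster handling there were 4 rises and 8 falls, a share of 52.2% called, also near that of all genes, and over set means 1 rose and 1 fell (median difference -0.061). Hmox1, the inducible haem oxygenase that releases iron from haem, fell by 0.71 (adjusted p = 1.01e-04; 0.0553 over set means), and the biliverdin reductase genes Blvrb and Blvra fell by 0.60 and 0.54. Blvrb passed over set means (adjusted p = 0.0292) and Blvra did not (adjusted p = 0.0540). Hmox1 is expressed in macrophages, whose markers fell as given above, and their part was not tested. Slc25a37, the mitochondrial iron importer mitoferrin, rose by 0.50 (adjusted p = 1.04e-05; 0.0381 over set means). Of 7 red blood cell markers, 6 were below the filter and Alas2, the erythroid enzyme of haem synthesis, rose by 0.52, with a summed level of 8.00 to 8.20 in wild-type and 8.34 to 8.70 in null libraries.

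The copper genes Slc31a1 and Slc31a2 both rose. Among 8 tested copper genes there were 3 rises and 2 falls, a share of 62.5% called against 53.1% of all genes, and over set means 2 rose and 1 fell (median difference 0.096). Slc31a1, the copper importer CTR1, stood at 10.80 to 10.90 in wild-type and 11.78 to 12.16 in null libraries, and rose by 1.10 (adjusted p = 3.75e-09; 0.00387 over set means). Its relative Slc31a2 rose by 0.85 (adjusted p = 0.0206 over set means). Commd1, which takes part in copper export, fell by 0.76 (adjusted p = 6.01e-08; 0.00994 over set means). Of 12 magnesium genes beyond the Slc41 family, 7 rose and 1 fell, a share of 66.7% called (median difference 0.18), and Cnnm2, a magnesium transport mediator, rose by 0.70 and was the 1 gene called over set means (adjusted p = 0.0198).

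**Figure D4:**
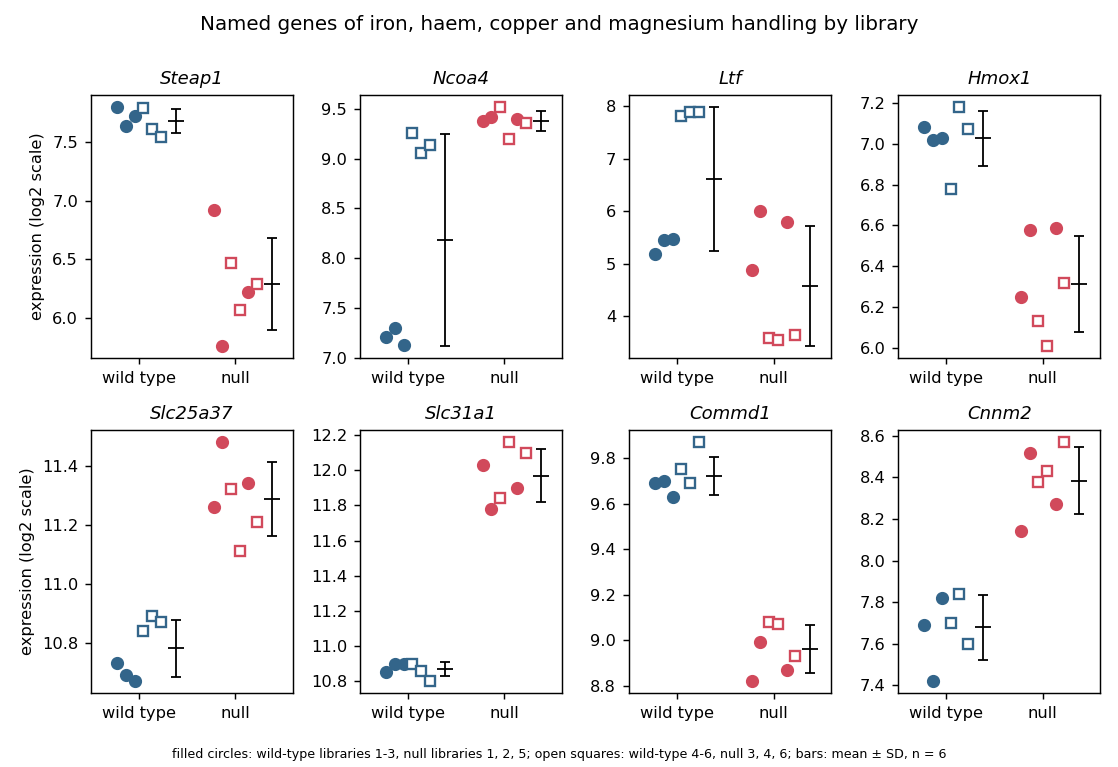
Values of each library on the log2 scale for 8 named genes of iron, haem, copper and magnesium handling, with symbols and bars as in the plot of metallothioneins. Slc31a1 and Commd1 separate the genotypes with little spread, while wild-type libraries of Ncoa4 split into 7.13 to 7.30 and 9.06 to 9.26.

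The calls of some members thus depended on the sets of libraries, and those of others did not. The null sets did not overlap in 18 of 36 members and the wild-type sets in 19. The set means lay at least 0.5 apart for 3 members in null and 4 in wild-type libraries. The sets were chosen from these same data, and the shares over all tested genes were not counted. These counts are therefore a description and show nothing particular to the members. The 9 members called in both fits were Mt1, Mt2, Mt3, Slc30a2, Slc30a4, Slc30a7, Slc39a6, Slc11a2 and Slc41a2. For each of them the genotypes did not overlap, and each was also called without null libraries 5 and 6. That fit, added after the data were seen, called 20 members (12 higher, 8 lower) and lost the calls of Slc30a6 (adjusted p = 0.0558), Slc39a4 (0.0591) and Slc39a8 (0.0771).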

How the data were processed

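RNA of 12 prostate libraries was poly-A selected and prepared with an Illumina TruSeq kit, per the labels. CASAVA 1.8.2, Cufflinks 2.0.2, TopHat2 2.0.4, DESeq and the build mm9 are listed, per the submitters' processing notes, without their roles. The deposited values, on a log2 scale by their form, were normalised by the authors in a way not given in the sources used here. They span 1.07 to 21.6. Strand use and depth are also not given, so no count test or depth interval was possible.

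Testing used limma 3.58.1 (R 4.3.3) on the unchanged values (trend, robust moderation, genotype as the only term), with Benjamini-Hochberg adjustment over 15096 genes at or above 4 in at least 6 libraries. Sets were found from the data as triplets of which 1 library was closest to the average of its partners, and the second fit used the 4 set means. Members and lists were chosen with earlier results of these data known. Full values are given for called members differing by at least 0.5 and for Mt1, Mt2, Mtf1, Slc30a1, Tfrc, Trf, Fth1, Ftl1, Slc40a1, Slc11a2 and Cp. From other lists up to 4 called genes differing by at least 0.5 are named. The fits over 12 libraries were tested on simulated data in which libraries varied independently. That test held no sets, so it does not cover libraries that depend on each other. Alternatives were 3 choices of variance model or test, quantile and upper quartile scaling, no filter, a filter at 5, a 1.5-fold threshold, each library or set left out, and, added after seeing the data, null libraries 5 and 6 left out. Sequences come from RefSeq (GRCm38.p6) and GENCODE M21 (GRCm38), whose coordinates are not those of mm9. The level of the targeted gene is not reported here.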

Additional observations from a re-analysis of the deposited data

Results flagged for a closer look

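In 120 groups of 6 libraries (60 named genes in 2 genotypes) a single library stood apart from the other libraries of its genotype in 4, by a gap past the 95% critical value of Dixon's test. Chance alone would flag about 1 in 20 groups. Slc39a10 stood at 8.31 in null library 2, against 8.88 in the next lowest null library. Slc39a5 stood at 3.04 in wild-type library 6, under the 95th percentile of undetected genes, against 4.03 in the next lowest. Blvra stood at 8.05 in wild-type library 1, against 8.15 in the next lowest. Spink3, a prostate marker, stood at 11.23 in null library 1, against 13.80 in the next lowest null library. Neither Slc39a10 nor Slc39a5 was called with or without these libraries, and Blvra and Spink3 were called with all 12 libraries and without the library in question.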

How the results depend on the processing

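Mt1, Mt2, Mt3, Slc30a2, Slc39a6, Slc11a2 and Slc41a2 kept their direction and their call under all 26 alternatives. Slc30a4 and Slc30a7 lost theirs against a 1.5-fold change and under no other. Over set means 2195 genes were called, 1144 higher and 1051 lower, with 9 members (4 higher, 5 lower), 9 genes of the other pathway lists and 23 of the marker lists. Against a 1.5-fold change 1056 genes passed, 487 higher and 569 lower, with 7 members (3 higher, 4 lower), 3 pathway genes and 21 marker genes. The corresponding counts over 12 libraries were 8013 genes, 4224 higher and 3789 lower, with 23 members, 34 pathway genes and 50 marker genes. Leaving out 1 library gave 7586 to 7887 genes, 4022 to 4185 higher and 3518 to 3754 lower, 21 to 24 members, 12 to 14 higher and 9 to 11 lower, 29 to 33 pathway genes and 46 to 53 marker genes. Leaving out a set of 3 gave 6827 to 7848 genes and 18 to 25 members. Leaving out null libraries 5 and 6, an alternative chosen after seeing the data, gave 6997 genes, 3727 higher and 3270 lower, and 20 members. Quantile normalization turned the balance of all genes to 4073 higher and 4174 lower, and upper quartile scaling to 3892 and 4260, while the median difference of all tested genes stayed between -0.0181 and 0.0118.

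Signs turned only for genes not called over 12 libraries, and the cause was not tested. Ftl1 stood at -0.08 after quantile normalization, -0.0021 after upper quartile scaling, -0.12 without wild-type libraries 4 to 6, and -0.0057 to 0.06 when 1 library was left out (-0.0029 and -0.0057 without wild-type libraries 4 and 5). Without wild-type libraries 4 to 6, Cp stood at 0.17, Slc39a14 at 0.04 and Nudt21 at -0.04. Without null libraries 1, 2 and 5, Cp stood at 0.05, Slc30a10 at 0.30, Slc39a1 at 0.02, Slc39a10 at 0.0010, Slc39a2 at -0.11 and Herpud1 at -0.46. Without null libraries 3, 4 and 6, Tfrc stood at -0.10. No paired analysis was possible because the labels give the genotypes no shared replicate numbers. The unknown depth and the spread of undetected genes limit what can be said of Mt4, Slc30a3, Slc30a8, Slc39a12, Hamp and Slc39a5.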
